A study of Mus musculus with 12 samples.

Results

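The type I interferon response was followed through 43 genes, chosen by name. Earlier results of these data were known by then, so the directions of the genes are not independent evidence. The list holds the receptor chains, the transcription factors that act downstream of them, nucleic acid sensors, and antiviral and other genes known to be induced by interferon. Of these genes, 41 had values in the deposited table and all 41 passed the filter on low counts. Mx1 and Mx2 are not analysed here. RNA was sequenced from cardiac fibroblasts, the stromal cells that lay down the heart's matrix. They came from the left ventricle of mice, and the infarct, 3 days old, had been made by lasting closure of the left anterior descending artery. The series asks what Pfas, an enzyme of de novo purine synthesis, does in these cells in vivo. The 6 control libraries came from PDGFRa CreER/+;Pfas fl/+ mice and the 6 Pfas CKO libraries from PDGFRa CreER/+;Pfas fl/fl mice. Both groups thus carry an inducible Cre recombinase at Pdgfra, a gene of fibroblasts and other mesenchymal cells, and the control mice carry 1 floxed Pfas allele. Tamoxifen on days 7 and 3 before infarction and 1 day after it is stated for Pfas CKO. The sources used here do not give the age of the mice, whether animals were pooled, or whether control mice received tamoxifen, and effects of tamoxifen and genotype cannot be told apart.

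Libraries held 20320133 to 20950074 estimated read counts. Levels are given in CPM, counts scaled by the library total times a factor from TMM (trimmed mean of M-values). The factors were 1.07 to 1.10 in control and 0.914 to 0.934 in Pfas CKO. A gene with 0 counts could still have stood at 0.131 to 0.134 CPM in a control library or 0.157 to 0.161 CPM in a Pfas CKO library. This takes 3 counts as the floor and counting error alone. The libraries formed sets: control 1 to 3, control 4 to 6, and Pfas CKO 1, 3, 5 and 6, with Pfas CKO 2 and Pfas CKO 4 each apart. Per gene, the chi-square averaged 1.69 to 5.28 between libraries of a set, 17.5 to 40.5 across sets of a group and 170 to 253 between the groups, where 1 is sampling noise. The labels do not say that libraries came from separate mice, so the spread that p-values measure may be technical. Results are therefore also given with each set summed, which leaves 2 samples of control and 3 of Pfas CKO, and without Pfas CKO 2 and 4. Pfas itself stood at 22.4 to 24.9 CPM in control, at 8.01 to 9.66 CPM in Pfas CKO 1, 3, 5 and 6, at 17.4 CPM in Pfas CKO 2 and at 14.5 CPM in Pfas CKO 4. The 8 fibroblast markers summed to 17630 to 20641 CPM in control libraries and 13956 to 16838 CPM in those of Pfas CKO, with 4 of them called higher (Dcn, Lum, Postn, Tcf21) and 4 lower (Col1a1, Col1a2, Col3a1, Pdgfra). Their mean log2 CPM was 9.56 to 9.63 in control and 9.56 to 9.64 in Pfas CKO. The 12 macrophage markers summed to 5954 to 6493 and 5456 to 7430 CPM. Macrophage transcripts were thus abundant in libraries labelled as fibroblasts, and in such bulk RNA fewer cells of a type and less RNA per cell cannot be told apart.

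Type I interferons are cytokines that most cells secrete when RNA helicases or other sensors meet foreign or misplaced nucleic acid. They bind a receptor of the chains Ifnar1 and Ifnar2, whose kinases Jak1 and Tyk2 phosphorylate Stat2. Stat2 and Irf9 are parts of the complex ISGF3, which binds the interferon-stimulated response element (ISRE) in promoters of interferon-stimulated genes. The signal of interferon gamma acts mainly through another sequence, the gamma-activated site (GAS). In the infarcted heart, interferon responses are best known from infiltrating macrophages, and fibroblasts also respond to interferon.

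Both sequences were looked for in the 250 bases before each gene's start, on both strands, as GAAA, any 2 bases and GAAA again for the ISRE, and as TTCNNNGAA for the GAS (promoters from RefSeq, build GRCm38.p6). Of the 41 genes, 33 had an entry. The ISRE letters were present in 9 of the 33 (27.3%), against 936 of all 27025 genes with a promoter (3.46%), and the GAS letters in 8 (24.2%), against 8.13%. Of the 9 genes with the ISRE letters, 5 were lower and 2 higher in Pfas CKO by the test below, with a median log2 fold change of -0.57, and of the 24 without, 16 were lower and 4 higher, with a median of -0.53. The letters were thus found in genes of either direction. Windows are printed 5′ to 3′ on the gene's strand, with matches in capitals on whichever strand they lie. Those of Oas3 and Irf8 stand for large falls, Irf1, Ifnar2 and Ifit1 for the 3 largest rises among called genes with a promoter entry, and Stat2 for ISGF3. Ifit3, Ifit3b, Isg15 and Rsad2 were added after their values were seen. No match lay in the windows of Xaf1 and Irf9. In Isg15, 3 overlapping ISRE matches form 1 run of capitals.
Oas3 (chr5:120777705-120777754, minus, ISRE): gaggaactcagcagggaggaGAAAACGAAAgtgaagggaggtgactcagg
Irf8 (chr8:120736167-120736233, plus, GAS): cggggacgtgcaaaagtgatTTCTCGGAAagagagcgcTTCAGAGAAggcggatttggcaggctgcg
Irf1 (chr11:53769904-53769952, plus, GAS): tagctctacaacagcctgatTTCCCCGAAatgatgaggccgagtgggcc
Ifnar2 (chr16:91372549-91372597, plus, GAS): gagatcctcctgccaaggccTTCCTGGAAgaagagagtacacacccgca
Stat2 (chr10:128270256-128270305, plus, ISRE): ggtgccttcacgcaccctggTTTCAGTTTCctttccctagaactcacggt
Ifit1 (chr19:34640765-34640833, plus, ISRE): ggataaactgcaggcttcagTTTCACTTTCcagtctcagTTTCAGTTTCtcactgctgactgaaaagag
Ifit3 (chr19:34583353-34583436, plus, ISRE): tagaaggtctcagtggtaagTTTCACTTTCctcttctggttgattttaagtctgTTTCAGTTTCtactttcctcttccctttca
Ifit3b (chr19:34607749-34607832, plus, ISRE): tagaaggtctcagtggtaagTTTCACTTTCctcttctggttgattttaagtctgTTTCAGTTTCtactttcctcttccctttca
Isg15 (chr4:156200855-156200916, minus, ISRE): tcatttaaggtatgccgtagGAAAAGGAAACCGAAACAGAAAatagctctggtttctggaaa
Rsad2 (chr12:26456543-26456592, minus, ISRE): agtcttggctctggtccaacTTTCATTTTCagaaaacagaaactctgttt

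Most genes of the response were lower in Pfas CKO, while Ifnar2, Irf1 and Parp14 were higher. At an adjusted p under 0.05 (edgeR quasi-likelihood test, 6 against 6 libraries, Benjamini-Hochberg adjustment over 13600 genes), 27 of the 41 genes were lower, 7 were higher and 7 did not pass. Of all genes tested, 35.2% were lower and 33.4% were higher, so the share of the response called higher was below that of all genes and the share called lower was above it. The median log2 fold change of the 41 genes was -0.61, against -0.02 for all genes tested, and it stayed at -0.61 with Ifi44l, which had no counts in Pfas CKO, at the bound its floor allows. In 25 genes all 6 Pfas CKO libraries lay below all 6 control libraries (23.9% of all genes did), in 3 genes, Ifnar2, Irf1 and Parp14, all lay above (23.2% of all genes), and in 13 genes the groups overlapped.

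**Figure D1:**
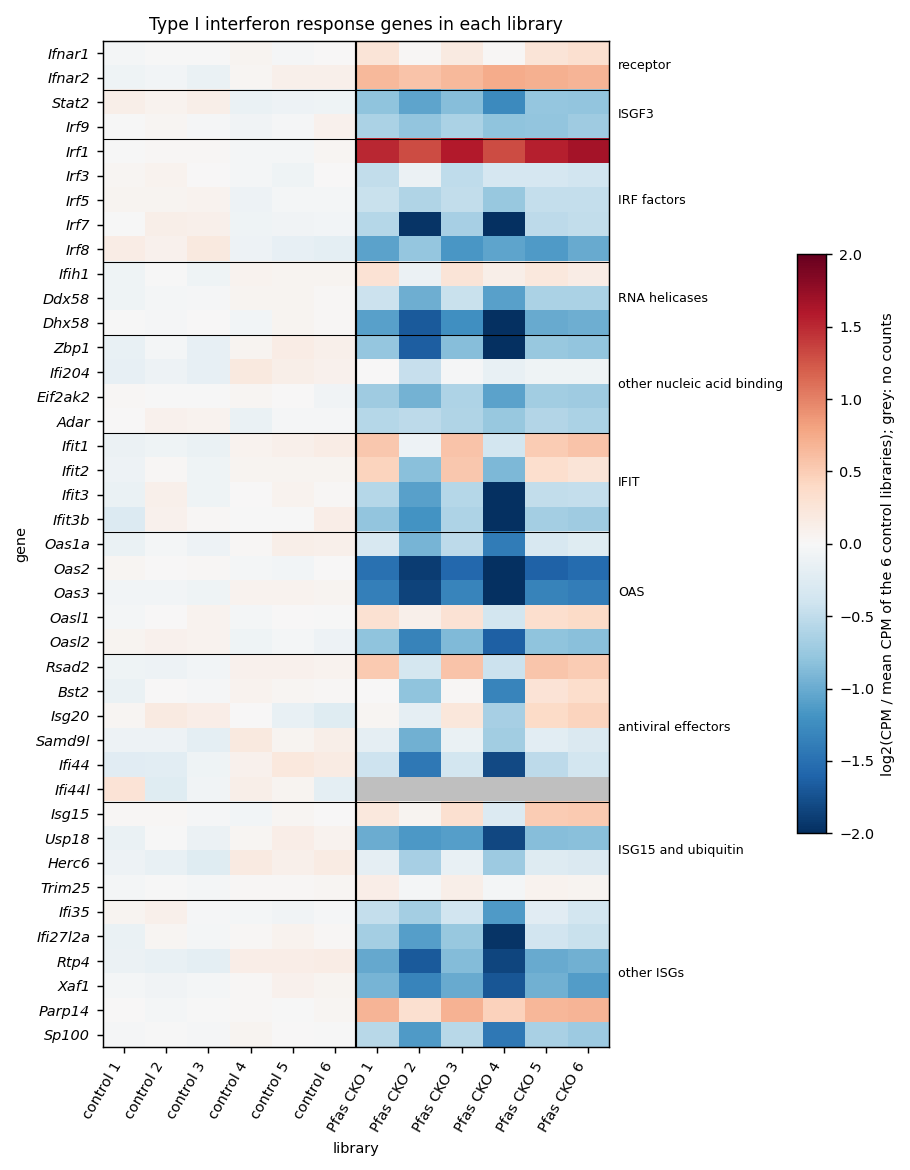
Level of each of the 41 genes (vertical axis, grouped by role) in each of the 12 libraries (horizontal axis), as the log2 ratio of its CPM to the mean CPM of the 6 control libraries; grey marks no counts. Pfas CKO 2 and 4 hold the lowest values of most genes, while Irf1, Ifnar2 and Parp14 are above control in all 6 Pfas CKO libraries.

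With the near-identical sets summed, 26 genes were lower and 3 higher (18.9% and 18.3% of 15230 genes tested), and without Pfas CKO 2 and 4, 27 were lower and 13 higher (37.2% and 33.4% of 13815). The number of lower genes was 23 against control 1 to 3 alone and 27 against control 4 to 6 alone. Of all genes, 4641 of 13921 and 4466 of 13839 were lower in these 2 fits. Scaling by library totals in place of TMM moved the median of all genes by itself to -0.26. Of all 13600 genes, 7202 were then lower and 2775 higher, and of the 41 genes 29 and 3, with a median of -0.84. The test on log2(TPM + 1) gave 29 and 3 with a median of -0.90, beside 7280 and 2279 of 12426 genes. The 3 genes higher under each of these settings were Ifnar2, Irf1 and Parp14. Between control 4 to 6 and control 1 to 3, which share a genotype, the mean log2 CPM differed by -0.29 (Irf8) to 0.32 (Ifi44), and 37 of the 41 genes had a fold change between the groups larger than this difference.

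Levels can be set side by side per gene length, in TPM (transcript shares corrected for length). In control the highest were Ifi27l2a at 732 ± 22.7 TPM, Bst2 at 338 ± 10.5, Irf7 at 282 ± 23.8 and Isg15 at 252 ± 8.89 TPM (mean ± SD, n = 6). The lowest were Ifi44l at 6.05 ± 0.910, Herc6 at 14.3 ± 1.44 and Ifi44 at 15.8 ± 1.65 TPM. In Pfas CKO the order at the top was Ifi27l2a at 344 ± 115, Bst2 at 254 ± 99.1, Isg15 at 246 ± 49.4 and Irf1 at 207 ± 23.2 TPM, and the levels of neighbours in this order overlapped within their SDs. Irf7 stood at 121 ± 58.0 TPM there.

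Of the ligands, Ifnb1, which encodes interferon beta, was followed after its values were seen. It had 1, 1, 0, 3, 4.31 and 4 estimated counts in control 1 to 6 and 31, 8, 25.99, 16, 36 and 30 in Pfas CKO 1 to 6. Every Pfas CKO library lay above every control library, and the lowest Pfas CKO value was that of Pfas CKO 2. Ifnb1 was below the filter on low counts. Without that filter its log2 fold change was 3.68 ± 0.467 (SE; edgeR adjusted p = 3.83e-06), on a control mean of 0.0988 CPM that is below the floor of a single library. With the sets summed the adjusted p was 0.00379. Ifna2 and Ifnk had at most 2.02 estimated counts in any library. Ifna1, Ifna4, Ifna5, Ifne and Ifng, the type II interferon, were blank in at least 3 control libraries and had at most 3 counts in Pfas CKO, so no difference of theirs was detectable at this depth.

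Both receptor chains were called higher in Pfas CKO, Ifnar2 under all 23 alternatives and Ifnar1 not. Ifnar2, the chain that binds interferon most tightly (GRCm38 chromosome 16, 91372783 to 91405589, plus strand, protein-coding), ranged from 107 to 127 CPM (median 117) in control and from 175 to 197 CPM (median 187) in Pfas CKO. No library of one group reached the other, and Pfas CKO 2 and 4, at 149% and 167% of the control mean, lay on either side of the other 4 libraries at 159%. Ifnar2 rose by 0.67 ± 0.0527 on the log2 scale (SE; edgeR adjusted p = 2.48e-08). Ifnar1, the other chain, on the same chromosome at 91485238 to 91507441, ranged from 263 to 279 CPM (median 268) in control and from 272 to 336 CPM (median 314) in Pfas CKO. Its groups overlapped, with Pfas CKO 2 and 4 at 101% and 102% of the control mean and the other 4 libraries at 119%. The log2 fold change of Ifnar1 was 0.18 ± 0.0559 (edgeR adjusted p = 0.00873). That call was lost with the sets summed (adjusted p = 0.521; 4.23e-05 to 0.521 over the 23 alternatives), against control 4 to 6 alone (0.0626), and with library totals and on log2(TPM + 1), where the direction turned to -0.049 and -0.11, while it was kept with RLE scaling and DESeq2.

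Both members of ISGF3 among the 41 genes were lower. Stat2 (chromosome 10, 128270559 to 128292849, plus strand, protein-coding), the subunit specific to type I and type III interferon, ranged from 102 to 121 CPM (median 111) in control and from 45.9 to 65.0 CPM (median 62.8) in Pfas CKO. The groups did not overlap, and Pfas CKO 4 was the lowest library. Stat2 fell by 0.92 ± 0.0838 on the log2 scale (edgeR adjusted p = 1.34e-07). Irf9 (chromosome 14, 55603571 to 55610030, plus strand, protein-coding), which gives the complex its DNA contact, ranged from 83.3 to 93.5 CPM (median 86.8) in control and from 50.3 to 56.8 CPM (median 52.3) in Pfas CKO. All 6 Pfas CKO libraries were close together, at 57.4% to 62.1% of the control mean with those of the set averaged. Irf9 fell by 0.72 ± 0.0481 (edgeR adjusted p = 3.62e-09).

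Of the 5 interferon regulatory factors besides Irf9, 1 was higher and 4 were lower. Irf1 (chromosome 11, 53770014 to 53778374, plus strand, protein-coding), a factor that interferon gamma and inflammatory cytokines induce early, ranged from 76.8 to 81.1 CPM (median 79.5) in control and from 195 to 249 CPM (median 229) in Pfas CKO. The groups were far apart, and the lowest Pfas CKO library was above 2 times the highest control library. Irf1 rose by 1.49 ± 0.0633 on the log2 scale (edgeR adjusted p = 1.87e-11), the largest rise among the 41 genes. Irf8 (chromosome 8, 120736358 to 120756694, plus strand, protein-coding), a factor of the myeloid lineage, ranged from 50.04 to 65.3 CPM (median 57.0) in control and from 25.7 to 33.5 CPM (median 27.3) in Pfas CKO. The groups did not overlap, and Pfas CKO 2 was the highest library of its group. Irf8 fell by 1.03 ± 0.0825 (edgeR adjusted p = 3.07e-08).

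Irf7 (chromosome 7, 141262706 to 141266481, minus strand, protein-coding), the factor that amplifies interferon production and is itself induced by interferon, ranged from 197 to 227 CPM (median 205) in control and from 32.8 to 149 CPM (median 137) in Pfas CKO. Pfas CKO 4 stood at 32.8 and Pfas CKO 2 at 53.7 CPM, or 15.7% and 25.6% of the control mean, while the other 4 Pfas CKO libraries averaged 67.8%. All 6 were below every control library. Irf7 fell by 0.94 ± 0.283 on the log2 scale (edgeR adjusted p = 0.00802). Its fold change was -0.57 without Pfas CKO 2 and 4 (adjusted p = 8.73e-07), and against control 4 to 6 alone its call was lost (0.0645, the highest of the 23 alternatives). Irf3, the factor that sensors activate first, fell by 0.36 (edgeR adjusted p = 0.000121), a call that was lost with the sets summed (0.106; 1.85e-07 to 0.106 over the alternatives). Irf5, a factor of Toll-like receptor signalling, fell by 0.54 (adjusted p = 6.52e-07).

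**Figure D2:**
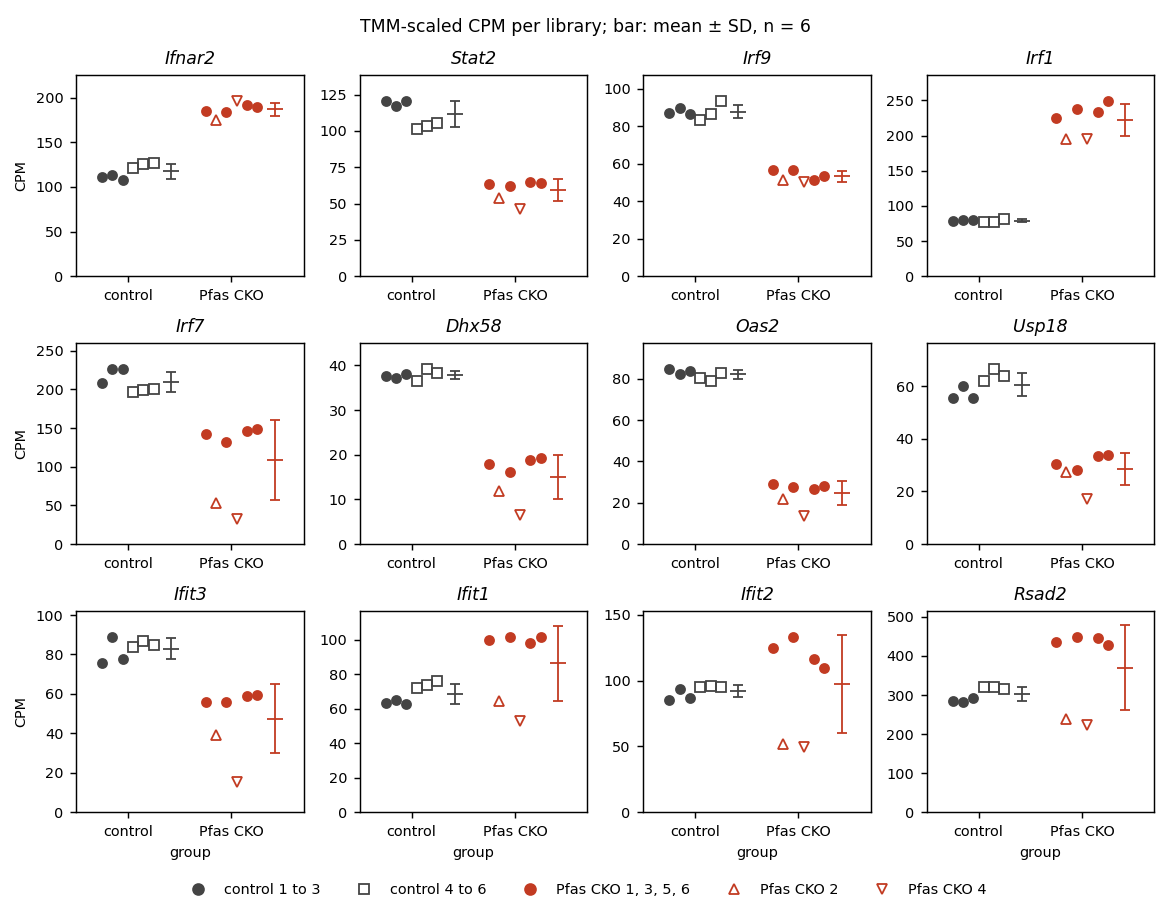
TMM-scaled CPM (vertical axes, linear from 0) of 12 of the genes in each library, control and Pfas CKO side by side, with the mean ± SD of the 6 libraries of a group as a bar. Symbols separate the library sets: Ifnar2 and Irf1 are higher and Stat2, Irf9, Dhx58, Oas2 and Usp18 lower in all 6 Pfas CKO libraries, whereas in Ifit2 and Rsad2 Pfas CKO 2 and 4 lie below control and the other 4 libraries above it under TMM scaling.

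The 3 RNA helicases that sense viral RNA did not move together. Dhx58 (Lgp2), which modulates the other two, ranged from 36.4 to 39.2 CPM (median 37.8) in control and from 6.505 to 19.2 CPM (median 17.0) in Pfas CKO. The groups were far apart, and Pfas CKO 4 was lowest at 17.2% of the control mean, Pfas CKO 2 next at 31.4%, and the other 4 libraries averaged 47.6%. Dhx58 fell by 1.33 ± 0.178 (edgeR adjusted p = 8.29e-06). Ddx58, which encodes RIG-I, fell by 0.68 (adjusted p = 1.46e-05). Ifih1, which encodes MDA5, ranged from 53.8 to 60.1 CPM (median 58.2) in control and from 52.6 to 70.1 CPM (median 64.8) in Pfas CKO, and its groups overlapped. Its log2 fold change was 0.16 ± 0.0651 (edgeR adjusted p = 0.0415). That call was lost with the sets summed (0.630; 0.000904 to 0.630 over the alternatives), with library totals and on log2(TPM + 1), where the value was -0.074 and -0.11, and when any of control 1 to 3 or any Pfas CKO library but Pfas CKO 2 was left out singly, and kept with RLE scaling and DESeq2.

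Among the other genes whose products bind nucleic acid, 3 were lower and 1 did not pass. Zbp1, a sensor of Z-form nucleic acid that can start necroptosis, ranged from 51.6 to 63.9 CPM (median 58.1) in control and from 12.4 to 34.1 CPM (median 32.7) in Pfas CKO. The groups did not overlap, with Pfas CKO 4 lowest and Pfas CKO 2 next. Zbp1 fell by 1.08 ± 0.193 (edgeR adjusted p = 0.000147). Eif2ak2, the RNA-activated kinase PKR that shuts down translation, fell by 0.78 (adjusted p = 8.54e-08), and Adar, the adenosine deaminase that edits double-stranded RNA, by 0.61 (adjusted p = 5.70e-08). Ifi204, a DNA-binding protein of the p200 family, had a log2 fold change of -0.12 (edgeR adjusted p = 0.207). It was called lower against control 4 to 6 alone (-0.26, adjusted p = 0.0188), with library totals (-0.35, 0.000868) and on log2(TPM + 1), but stood at 0.025 against control 1 to 3 alone. Moreover, 23.2% of the 50-base windows of its transcripts also occur in those of Ifi211, so its counts are uncertain.

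The 4 Ifit genes, whose products bind viral RNA and restrain its translation, lie between 34550694 and 34650009 of chromosome 19 and split by gene and by library. Ifit3b ranged from 15.7 to 20.8 CPM (median 19.1) in control and from 4.57 to 12.4 CPM (median 11.3) in Pfas CKO, without overlap, and fell by 0.93 ± 0.171 (edgeR adjusted p = 0.000181). Ifit3, whose promoter window printed above is identical to that of Ifit3b, ranged from 75.5 to 89.0 CPM (median 84.1) in control and from 15.3 to 59.4 CPM (median 55.8) in Pfas CKO and fell by 0.81 ± 0.224 (adjusted p = 0.00477). The transcripts of the pair share 51.2% and 44.5% of their 50-base windows, so the division of reads between them is uncertain, while both were lower.

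Ifit1 and Ifit2 gave another picture. Ifit1 ranged from 62.8 to 75.8 CPM (median 68.5) in control and from 53.1 to 102 CPM (median 99.0) in Pfas CKO. Pfas CKO 4 and 2, at 77.3% and 93.6% of the control mean, overlapped with control or lay below it, and the other 4 libraries averaged 146%. The log2 fold change of Ifit1 was 0.33 ± 0.142 (edgeR adjusted p = 0.0496). That call was lost with the sets summed (0.788; 1.36e-06 to 0.9795 over the alternatives), against either control set alone, with library totals and on log2(TPM + 1), and when any of control 1 to 5 or of Pfas CKO 1, 3, 5 and 6 was left out singly, and kept with RLE scaling and DESeq2. Ifit2 ranged from 85.5 to 95.5 CPM (median 94.2) in control and from 49.5 to 133 CPM (median 113) in Pfas CKO. Pfas CKO 2 and 4 stood at 56.1% and 53.9% of the control mean, below every control library. The other 4 libraries averaged 132%, above every control library under TMM scaling, while in TPM they overlapped with control. The log2 fold change of Ifit2 over all 6 was 0.085 (adjusted p = 0.732), and without Pfas CKO 2 and 4 it was 0.39 (adjusted p = 3.71e-05).

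Of the 5 genes of the 2′-5′-oligoadenylate synthetase family, 4 were lower, beside 35.2% of all genes. The family is named for enzymes that activate RNase L when they bind double-stranded RNA, and Oasl1 and Oasl2 are counted here as relatives. Oas2 (chromosome 5, 120730333 to 120749853, minus strand, protein-coding) ranged from 79.1 to 84.8 CPM (median 82.7) in control and from 13.7 to 29.3 CPM (median 27.1) in Pfas CKO. The control libraries were within 6 CPM of each other, and all 6 Pfas CKO libraries lay far below them, Pfas CKO 4 lowest. Oas2 fell by 1.74 ± 0.132 (edgeR adjusted p = 1.52e-08), the largest fall among the genes detected in all libraries. Oas3, its neighbour, fell by 1.59 (adjusted p = 6.16e-07), and Oasl2, a relative in the mouse with a ubiquitin-like end, by 1.01 (adjusted p = 2.55e-06). Oas1a fell by 0.57 (adjusted p = 0.00355), but not past the threshold against control 1 to 3 alone (0.0503, the highest of the alternatives), and it shares 56.9% of its 50-base windows with Oas1g. Oasl1, a relative that dampens Irf7 translation in mice, had a log2 fold change of 0.20 (adjusted p = 0.0825).

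Of the antiviral effectors, 3 were lower and 3 did not pass. Ifi44 (chromosome 3, 151730922 to 151749960, minus strand, protein-coding) ranged from 15.9 to 21.5 CPM (median 18.7) in control and from 5.32 to 14.4 CPM (median 13.5) in Pfas CKO, without overlap. It fell by 0.72 ± 0.202 (edgeR adjusted p = 0.00539), and its call was lost against control 1 to 3 alone (0.0834, the highest of the alternatives). Its neighbour Ifi44l (chromosome 3, 151758737 to 151762892), singled out after its values were seen, ranged from 2.70 to 3.85 CPM (median 3.16) in control and had 0 counts in all 6 Pfas CKO libraries. It was at least 19.7-fold lower there, with the floor of 3 counts taken per library. Among all genes tested, Ifi44l was the 1 gene with a control mean of at least 2 CPM and no count in any Pfas CKO library. In the other direction, 1 gene had a Pfas CKO mean of at least 2 CPM and no count in any control library.

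Samd9l, an antiviral and growth-restraining protein, fell by 0.38 (edgeR adjusted p = 0.0131), a call that was lost against control 1 to 3 alone (0.174, the highest of the alternatives). Rsad2, which encodes viperin, an enzyme that makes a chain-terminating nucleotide, ranged from 281 to 322 CPM (median 304) in control and from 223 to 449 CPM (median 433) in Pfas CKO. As for Ifit2, Pfas CKO 2 and 4 lay below every control library, at 78.6% and 73.8% of the control mean, and the other 4 libraries lay above every control library, at an average of 145%. The log2 fold change of Rsad2 was 0.29 (adjusted p = 0.120) over all 6 libraries and 0.53 (adjusted p = 1.77e-07) without Pfas CKO 2 and 4. Of all genes tested, 72 (0.529%) had this pattern. Bst2, the tetherin that holds budding virus at the cell surface, had a log2 fold change of -0.13 (adjusted p = 0.604), and Isg20, an exonuclease, one of 0.086 (adjusted p = 0.627).

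The genes of the ISG15 system split. Isg15, the ubiquitin-like protein itself, ranged from 72.4 to 76.9 CPM (median 75.8) in control and from 62.1 to 108 CPM (median 90.5) in Pfas CKO. Control libraries were close together, and Pfas CKO 4 lay below them, at 82.6% of their mean, while the 4 libraries of the set averaged 131% of it. The log2 fold change of Isg15 was 0.25 ± 0.105 (edgeR adjusted p = 0.0468). That call was lost with the sets summed (0.707; 4.92e-05 to 0.901 over the alternatives), against either control set alone, with library totals and on log2(TPM + 1), and when any control library or any of Pfas CKO 1, 3, 5 and 6 was left out singly, and kept with RLE scaling and DESeq2. Usp18, the protease that removes Isg15 from proteins and blocks the receptor, ranged from 55.4 to 66.6 CPM (median 60.9) in control and from 17.2 to 33.9 CPM (median 29.3) in Pfas CKO. The groups did not overlap, and Usp18 fell by 1.09 ± 0.122 (edgeR adjusted p = 1.23e-06). Herc6, the ligase that attaches Isg15 in mice, fell by 0.36 (adjusted p = 0.00834), a call that was lost against control 1 to 3 alone (0.182, the highest of the alternatives). Trim25, a ubiquitin ligase, had a log2 fold change of 0.051 (adjusted p = 0.320), and was called lower with library totals and on log2(TPM + 1), at -0.18 and -0.23 (adjusted p = 0.00146 and 0.000449), but not with RLE scaling or DESeq2.

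Of the 6 other interferon-stimulated genes among the 41, 5 were lower and Parp14 was higher. Rtp4, a chaperone of receptors (chromosome 16, 23520291 to 23614222, plus strand, protein-coding), ranged from 68.5 to 86.7 CPM (median 78.8) in control and from 21.8 to 42.9 CPM (median 38.7) in Pfas CKO. The groups did not overlap, and Rtp4 fell by 1.18 ± 0.148 (edgeR adjusted p = 3.97e-06). Parp14, an ADP-ribosyltransferase, also on chromosome 16 at 35832874 to 35871544, ranged from 180 to 189 CPM (median 184) in control and from 231 to 299 CPM (median 294) in Pfas CKO. All 6 Pfas CKO libraries lay above control, with Pfas CKO 2 and 4 at 125% and 137% of the control mean and the other 4 at 160%, and Parp14 rose by 0.59 ± 0.0629 (edgeR adjusted p = 6.98e-07). Xaf1, a pro-apoptotic protein, fell by 1.149, Sp100, a nuclear body protein, by 0.81, Ifi27l2a, a small mitochondrial protein, by 0.80, and Ifi35, a leucine zipper protein, by 0.52, with edgeR adjusted p between 9.37e-08 and 0.00117.

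The spread inside the Pfas CKO group was wide for these genes. Pfas CKO 2 and Pfas CKO 4 were the 2 lowest Pfas CKO libraries in 35 of the 40 genes with counts there, as they were in 19.4% of all genes, and the 2 highest in 1 of them, Irf3, as in 17.9% of all genes. Pfas CKO 4 was the lowest library in 30 genes, Pfas CKO 2 in 8 and Pfas CKO 3 in 2. The ratio of the highest to the lowest Pfas CKO library had a median of 1.78 over the 40 genes, against 1.32 over all genes. In Pfas CKO 2 and 4, 30 of the 41 genes lay below every control library (29.2% of all genes) and 3 above (27.9%). In Pfas CKO 1, 3, 5 and 6, 25 lay below every control library (30.5% of all genes) and 11 above (29.9%): Ifnar1, Ifnar2, Irf1, Ifih1, Ifit1, Ifit2, Oasl1, Rsad2, Isg15, Trim25 and Parp14. These positions are those under TMM scaling. In TPM, Ifnar2, Irf1, Ifit1, Rsad2 and Parp14 still lay above every control library in these libraries. Ifnar1, Ifih1, Ifit2, Oasl1 and Isg15 overlapped with control in TPM. Trim25 lay below control there, at 84.1 to 90.6 TPM against 97.0 to 99.2 TPM. The mean log2 CPM of the 40 genes was 6.25 to 6.33 in control, 5.98 to 6.01 in Pfas CKO 1, 3, 5 and 6, 5.55 in Pfas CKO 2 and 5.24 in Pfas CKO 4.

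Other measures moved with these libraries. Pfas CKO 2 and 4 had the highest Pfas levels of their group, as given above. The mean log2 CPM of the 12 macrophage markers was 7.72 to 7.80 in control, 7.93 to 7.97 in Pfas CKO 1, 3, 5 and 6, 7.62 in Pfas CKO 2 and 7.44 in Pfas CKO 4. In Pfas CKO as a whole 5 of these markers were higher, 4 lower and 3 did not pass. For the 5 neutrophil markers tested of 7 (Ly6g and Retnlg did not pass the filter) it was 3.69 to 3.85 in control, 4.02 to 4.12 in Pfas CKO 1, 3, 5 and 6, 4.94 in Pfas CKO 2 and 4.69 in Pfas CKO 4, while their summed level was 225 to 250 CPM in control libraries and 123 to 207 CPM in those of Pfas CKO. The sum of the dendritic cell markers was 23.4 to 29.0 CPM in control libraries and 45.0 to 62.1 CPM in those of Pfas CKO, of the endothelial markers 585 to 634 and 581 to 771 CPM, of the cardiomyocyte markers 11.4 to 13.0 and 31.6 to 37.9 CPM, and of the lymphocyte markers 1.25 to 2.04 and 2.25 to 3.76 CPM. The part of any of these in the interferon genes was not tested.

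**Figure D3:**
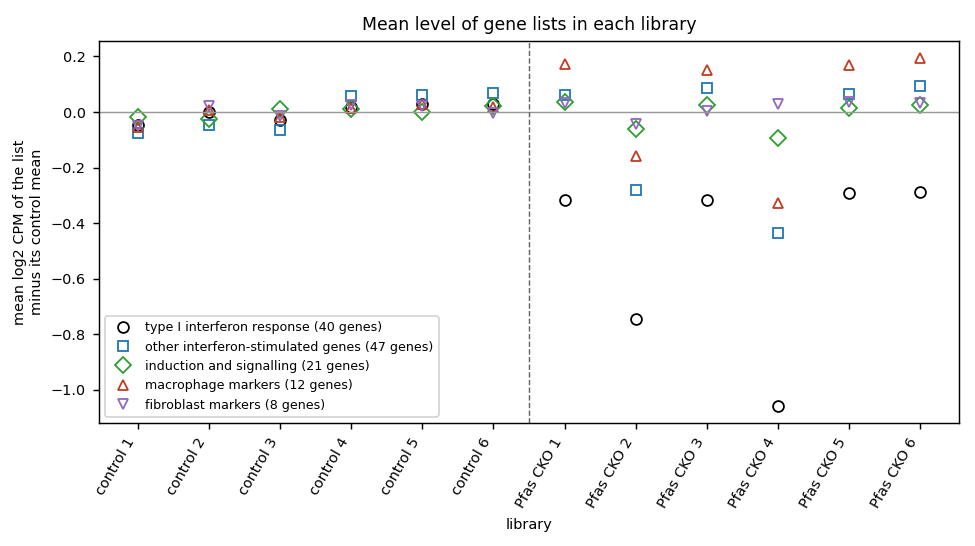
Mean log2 CPM of gene lists in each library (horizontal axis), minus the mean of the 6 control libraries (vertical axis). The 40 interferon response genes lie below 0 in all 6 Pfas CKO libraries and lowest in Pfas CKO 2 and 4, where the macrophage markers also lie below control.

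In a wider list of interferon-stimulated genes, 47 were tested of 49, of which 24 were lower, 13 were higher and 10 did not pass, beside 35.2% of all genes lower and 33.4% higher. Their median log2 fold change was -0.27. With the sets summed 20 were lower and 7 higher, beside 18.9% and 18.3% of all genes. Without Pfas CKO 2 and 4, 23 were lower and 18 higher, with a median of -0.19, beside 37.2% and 33.4% of all genes. The mean log2 CPM of the 47 genes was 5.20 to 5.34 in control and 5.34 to 5.37 in Pfas CKO 1, 3, 5 and 6. It was 4.99 in Pfas CKO 2 and 4.84 in Pfas CKO 4. Slfn1 and Slfn2, members of the Schlafen family of growth regulators that lie on chromosome 11, went opposite ways. Slfn1 fell from 54.3 ± 2.27 to 12.3 ± 2.27 CPM (mean ± SD, n = 6 each; edgeR adjusted p = 5.12e-11), and Slfn2 rose from 355 ± 29.2 to 859 ± 32.7 CPM (edgeR adjusted p = 3.30e-11). Of the p200 family on chromosome 1, Ifi211 rose from 13.3 ± 3.14 to 114 ± 12.3 CPM (edgeR adjusted p = 2.64e-11) and Ifi205 from 58.3 ± 6.07 to 166 ± 12.6 CPM (adjusted p = 7.91e-11), while Ifi207 fell from 260 ± 2.90 to 174 ± 6.15 CPM (adjusted p = 5.06e-09). The transcripts of Ifi205 and Ifi211 share 49.5% and 44.7% of their 50-base windows, so the reads of the 2 genes may not be told apart. Trim30a, an inhibitor of Toll-like receptor signalling in mice, fell from 126 ± 18.9 to 49.7 ± 9.42 CPM (edgeR adjusted p = 2.03e-07).

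Of the genes that induce interferon or carry its signal, 21 were tested of 30, of which 7 were higher, 10 were lower and 4 did not pass. The share called higher was near the 33.4% of all genes, and the share called lower was above the 35.2% of all genes. The median log2 fold change of the 21 genes was -0.0037. With the sets summed, 22 genes of the list were tested, of which 6 were higher and 6 lower, beside 18.3% and 18.9% of all genes. Ikbke, a kinase that activates Irf3 and Irf7, rose from 39.4 ± 2.83 to 118 ± 4.11 CPM (edgeR adjusted p = 1.31e-12). Traf3, the adaptor that links sensors to that kinase, rose from 62.2 ± 3.03 to 124 ± 4.11 CPM (adjusted p = 4.86e-11), and the receptor kinase Jak1 from 380 ± 6.498 to 537 ± 29.3 CPM (adjusted p = 9.83e-08). Ptpn6, a phosphatase that restrains cytokine receptors, fell from 84.6 ± 3.01 to 53.9 ± 3.91 CPM (edgeR adjusted p = 3.16e-08). Mavs, the adaptor of the RNA helicases, fell from 24.9 ± 1.18 to 15.4 ± 1.46 CPM (adjusted p = 2.42e-07), and Tlr7, an endosomal RNA receptor of immune cells, from 150 ± 20.2 to 93.5 ± 5.43 CPM (adjusted p = 1.83e-06).

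Of the receptor and kinase genes of interferon gamma, the type II interferon whose signal acts through the GAS, Ifngr1 rose from 55.8 ± 3.24 to 74.5 ± 6.70 CPM (edgeR adjusted p = 2.97e-05), Jak2 rose from 149 ± 11.68 to 411 ± 62.1 CPM (adjusted p = 9.66e-10) and Ifngr2 fell from 241 ± 3.28 to 149 ± 11.3 CPM (adjusted p = 1.02e-08). With the sets summed the adjusted p of Ifngr1 was 0.0592.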

How the data were processed

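Messenger RNA of 12 libraries, each from 1 µg of total RNA selected with oligo(dT), was measured. The deposited table holds estimated counts, not normalized by the authors, and TPM and FPKM scaled by the authors, per the file headers. The FPKM values were deposited by the authors and not used. The submitters' processing notes name Bowtie2, RSEM and DESeq2 for control 4 to 6 and Pfas CKO, none for control 1 to 3, and GRCm38 for all. The sources used here give neither annotation nor strand setting, and reads of overlapping genes cannot be told apart. Of 18771 genes, 1067 with blank values in control were left out.

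Estimated counts were rounded. The test was the quasi-likelihood test of edgeR 4.0.16 under R 4.3.3 (filterByExpr, TMM, glmQLFit, glmQLFTest; group as the term), with adjustment over 13600 genes. CPM are TMM-scaled. The code was tested on simulated data. Libraries were called near-identical at a mean chi-square per gene under 10. Positions are from the GENCODE annotation of GRCm38, promoters from RefSeq, searched at all starts listed. Alternatives were RLE, library totals, DESeq2 1.42.0, limma 3.58.1 on log2(TPM + 1), no filter, blanks as 0, a replicate block, sets summed, and libraries left out. Values were given in full for Ifnar1, Ifnar2, Stat2, Irf9, Irf7 and the called member with the largest rise and fall in each role at a mean of 2 CPM or more, and of the wider lists for the 3 called genes with the smallest p in each direction. Not every gene this rule takes is reported here. Ifnb1, Ifi44l, Ifit2, Ifit3, Rsad2 and the interferon gamma receptor genes were added after their values were seen. The genes and lists were chosen with earlier results of these data known, so their directions are not independent evidence.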

Additional observations from a re-analysis of the deposited data

Results flagged for a closer look

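In 2 of 82 groups of 6 libraries, 1 library lay far from the others by the Dixon test, a number below the about 1 in 20 groups that chance gives. The test looks for 1 library apart and can miss 2 that are low together, as Pfas CKO 2 and 4 were in 35 of 40 genes. The same libraries also recur in all groups, so the low number does not show that no library was odd. Irf8 stood at 33.5 CPM in Pfas CKO 2, the highest of its group, with a gap to the next library of 0.647 of the group's range. Sp100 stood at 91.1 CPM in control 4, the highest control library, with a gap of 0.667 of the range.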

How the results depend on the processing

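Over 41 genes and 23 alternatives, 860 of 943 values kept their direction and their side of the threshold. With the sign kept, 49 lost a call and 11 gained one. The other 23 changed sign, whether or not their call changed. The 27 genes called lower numbered 27 under every single library left out, 23 to 29 under the rest. The 7 called higher became 3 with library totals, log2(TPM + 1), the sets summed or control 1 to 3 left out, 13 without Pfas CKO 2 and 4, and 4 to 8 with single libraries left out (4 without control 1, 2 or 3 or Pfas CKO 1, 3, 5 or 6). The median of -0.61 became -0.84 with library totals and -0.90 on log2(TPM + 1), where the median of all genes fell to -0.26 and -0.28. The 13 other interferon-stimulated genes called higher became 8 on log2(TPM + 1), 7 with the sets summed and 18 without Pfas CKO 2 and 4. Of all genes, 4545 of 13600 were called higher, and in these 3 settings 2279 of 12426, 2786 of 15230 and 4617 of 13815. The 10 of 21 induction and signalling genes called lower became 6 of 22 with the sets summed, while the share of all genes called lower went from 35.2% to 18.9%.

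Signs changed as follows. With library totals the log2 fold change was -0.049 for Ifnar1, -0.074 for Ifih1, -0.15 for Ifit2, -0.036 for Oasl1, -0.15 for Isg20 and -0.18 for Trim25. On log2(TPM + 1) it was -0.11 for Ifnar1, -0.11 for Ifih1, -0.30 for Ifit2, -0.11 for Oasl1, -0.054 for Rsad2, -0.22 for Isg20, -0.063 for Isg15 and -0.23 for Trim25. With the sets summed it was -0.30 for Ifit2, -0.0045 for Rsad2 and -0.10 for Isg20. Against control 1 to 3 alone it was 0.025 for Ifi204 and -0.032 for Isg20, and without Pfas CKO 2 and 4 it was 0.16 for Bst2. With single libraries left out it ranged from -0.023 to 0.21 for Ifit2 and from -0.25 to 0.015 for Bst2. The cause was not tested.

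With replicate number as a block, 5 genes were higher and 27 lower, Ifit2 was at -0.011, and calls were lost for the log2 fold change of Ifih1 (edgeR adjusted p = 0.0677) and for the log2 fold change of Ifit1 (0.0689). Same-numbered libraries correlated at -0.044 to 0.166 in their deviations from the group means, and only those numbered 2 and 4 correlated best with their own number, a hint from the data and not from the design. The labels do not say whether same-numbered libraries belong together. Depth limited the interferon genes themselves, of which Ifna2 and Ifnk had at most 2.02 counts in any library.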
